A study of Mus musculus with 9 samples.

Results

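The subject is a set of 9 genes that encode the GATA and SCL transcription factors of blood progenitors and the proteins that hold them in a complex: Gata1, Gata2, Gata3, Zfpm1, Klf1, Tal1, Lyl1, Lmo2 and Ldb1. They were chosen by name, matched through their Entrez identifiers, and make up 9 of the 27179 genes in the count table. All 9 had enough reads to be tested. RNA was sequenced from HPC7 cells, a line of mouse blood progenitors derived from embryonic stem cells that express the LIM factor Lhx2 and grow in stem cell factor, here at 100 ng/ml with 10% fetal calf serum and 0.05 mM mercaptoethanol. Cells received a retroviral MSCV-IRES-GFP vector with 1 of 3 inserts: wild-type Snai1, a mutant Snai1 in which the phenylalanine at residue 5 is an alanine, or no gene (empty vector). Each group held 3 libraries from cells sorted for GFP 1 week after transduction, so that all groups share the vector backbone, the sort and the medium. Snai1 is a zinc finger repressor with a SNAG domain at its amino terminus, through which it recruits Lsd1, a histone demethylase whose gene is Kdm1a. The mutant is described by the labels as unable to bind Lsd1. The labels do not say whether the libraries of a group came from separate transductions, and Snai1 was expressed from the retroviral vector, in sorted pools of cells.

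In blood progenitors, GATA factors bind DNA through a pair of zinc fingers, and the basic helix-loop-helix factor SCL, encoded by Tal1, binds E-box sites with an E protein as its partner. The LIM-only protein Lmo2 bridges SCL and the GATA factor, and Ldb1 joins such complexes to each other, also across enhancer and promoter. Gata2 acts in stem and early progenitor cells, while Gata1, with its cofactor FOG-1 (Zfpm1) and the zinc finger factor Klf1, drives red cell genes, and the exchange of Gata2 for Gata1 at shared sites is known as the GATA switch. Lyl1 is the closest relative of SCL and partly stands in for it. Gata3 is best known from T cells and innate lymphoid cells. Lsd1 is also a partner of Gfi1b and Tal1 in erythroid cells.

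Promoter sequences of 8 of the 9 genes, all but Lmo2, were found in the RefSeq table of GRCm38.p6, which gives 250 bases before and 50 bases after a start site. They were searched on both strands for 3 short words. The E-box that Snai1 binds was spelled CAGGTG, the GATA word AGATAA, and the Klf word CCACACCC; each was also read as its reverse complement. In the 32851 promoters of that table, 20.2% held the E-box, 11.2% the GATA word and 3.56% the Klf word. Promoters of 4 genes that were lower with wild-type Snai1 are shown, because Gata1 had the largest change of the 9, Zfpm1 encodes its cofactor, and Tal1 and Lyl1 hold the matches described next. Capitals mark the matched words, and base 251 of each run is the start site. The Gata1 window is chrX:7967861-7968160 on the minus strand, and the Zfpm1 window is chr8:122281891-122282190 on the plus strand. The Tal1 window, for the first of the gene's 2 listed start sites, is chr4:115056176-115056475, and the Lyl1 window is chr8:84701207-84701506, both on the plus strand.
Gata1: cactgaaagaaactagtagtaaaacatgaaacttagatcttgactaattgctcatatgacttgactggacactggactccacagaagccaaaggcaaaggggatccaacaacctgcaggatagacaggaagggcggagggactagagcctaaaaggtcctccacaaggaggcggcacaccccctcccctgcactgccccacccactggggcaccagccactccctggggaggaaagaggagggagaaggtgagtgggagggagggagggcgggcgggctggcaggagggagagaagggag
Zfpm1: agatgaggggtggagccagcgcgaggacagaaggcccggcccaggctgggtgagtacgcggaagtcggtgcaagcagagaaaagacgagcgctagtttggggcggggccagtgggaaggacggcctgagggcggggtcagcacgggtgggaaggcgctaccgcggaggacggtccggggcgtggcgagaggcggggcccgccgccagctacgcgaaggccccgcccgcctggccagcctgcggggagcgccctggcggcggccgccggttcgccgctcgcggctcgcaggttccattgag
Tal1: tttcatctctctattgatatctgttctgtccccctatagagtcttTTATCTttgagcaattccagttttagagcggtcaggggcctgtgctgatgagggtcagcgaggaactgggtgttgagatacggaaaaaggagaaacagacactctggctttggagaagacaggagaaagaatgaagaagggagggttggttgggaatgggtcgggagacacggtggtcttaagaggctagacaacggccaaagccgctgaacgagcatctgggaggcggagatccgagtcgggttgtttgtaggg
Lyl1: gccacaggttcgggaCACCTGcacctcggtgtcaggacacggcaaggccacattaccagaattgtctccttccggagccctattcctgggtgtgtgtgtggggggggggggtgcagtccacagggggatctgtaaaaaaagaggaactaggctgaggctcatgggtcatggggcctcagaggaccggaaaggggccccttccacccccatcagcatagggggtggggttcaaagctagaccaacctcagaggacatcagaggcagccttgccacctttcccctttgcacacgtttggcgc
The Gata1 and Zfpm1 windows held none of the 3 words. In Lyl1 the reverse complement of the E-box began at base -235 from the start site, and in Tal1 that of the GATA word began at -205. The third of the 3 start sites listed for Ldb1 had the reverse GATA word at -240 and at -200. For this Ldb1 site and the printed Tal1 site, the bases after the start were not found as an unbroken run in a GENCODE M21 transcript of the gene, which a short first exon would also give. The sites for which they were found, the second of Tal1 and the second of Ldb1, held none of the 3 words. No match was found in the windows of Gata2, Gata3 and Klf1, which says only that these letters are not in those 300 bases.

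Libraries held 18332451 to 20860314 counts, and a count of 3 corresponded to a CPM (count scaled to library size) of 0.144 to 0.164. Levels below are CPM on library sizes scaled by the trimmed mean of M values (TMM), as mean ± SD of 3 libraries. Snai1 was at 492 ± 68.5 CPM in wild-type Snai1 cells, 460 ± 40.2 CPM in mutant cells and 0.828 ± 0.204 CPM with empty vector, vector reads included, and Kdm1a stayed between 193 and 208 CPM in every library. Markers of the labelled cell type were present, among them Kit at 3389, 3540 and 3614 CPM and Ptprc, which encodes CD45, at 637, 628 and 687 CPM, as means in the same order of groups. A pair of libraries stood apart from their groups. Wild-type replicate 1 differed from replicates 2 and 3 with a chi-square per gene of 47.6 and 56.4, where these differed by 5.35, and empty vector replicate 1 differed from its replicates by 21.8 and 23.4, where these differed by 5.10. In empty vector replicate 1, 1 identifier without a symbol took 3.62% of all counts, against 0.101% to 0.280% elsewhere.

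Per kilobase of transcript, which allows genes to be compared, Ldb1 and Lyl1 were at the top and Gata1, Gata3 and Klf1 at the bottom in every group. In empty-vector cells the order was Ldb1 (207 ± 5.00 CPM per kilobase), Lyl1 (186 ± 5.80), Tal1 (96.2 ± 2.11), Gata2 (79.7 ± 5.12), Zfpm1 (63.5 ± 3.04), Lmo2 (34.9 ± 1.89), Gata1 (8.32 ± 0.497), Gata3 (6.92 ± 0.334) and Klf1 (0.716 ± 0.0798). Each gene lay above the next in every library there. Mutant cells kept this order, with Tal1 at 87.4 ± 4.16 and Gata2 at 81.6 ± 4.67 CPM per kilobase overlapping. With wild-type Snai1 the order was different: Lyl1 (152 ± 26.9) and Ldb1 (145 ± 14.5) overlapped at the top, Gata2 (97.3 ± 24.6), Lmo2 (70.5 ± 4.63) and Tal1 (70.2 ± 6.76) overlapped in the middle, and Gata3 (15.1 ± 6.22) lay above Gata1 (1.78 ± 0.495) in every library. The plot of length-scaled levels shows the crossing of Gata1 and Gata3 and the position of Lmo2.

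**Figure D1:**
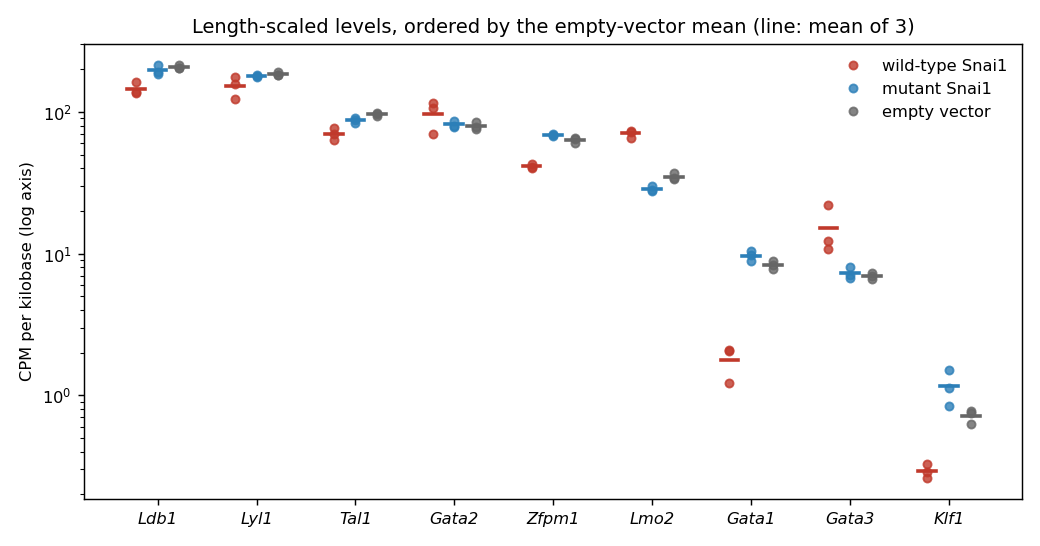
Levels of the 9 genes in CPM per kilobase on a log axis, for each library (points) and as the mean of 3 (lines), with wild-type Snai1, mutant Snai1 and empty vector from left to right within a gene. Gata1 averaged 1.78 with wild-type Snai1, against 9.64 with the mutant and 8.32 with empty vector, while Lmo2 averaged 70.5, 28.6 and 34.9.

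Setting wild-type Snai1 cells against the empty vector addresses how Snai1 alters expression in this progenitor line. Most of the 9 genes were lower: Gata1 fell most, Klf1, Zfpm1, Ldb1, Tal1 and Lyl1 fell as well, Lmo2 and Gata3 rose, and Gata2 was not called. In edgeR's quasi-likelihood test with Benjamini-Hochberg adjustment over all 12484 tested genes, 2 of the 9 were higher, against 25.2% of all genes, and 6 were lower, against 24.3% of all genes. The share called in either direction was 49.4% of all genes. Klf1, counted among the 6, passed the filter on low counts only through the mutant and empty-vector libraries, which fixed its direction. The libraries of both groups did not overlap for 8 of the 9, of which 2 were higher and 6 lower, against 56.6% of all genes (28.1% higher and 28.5% lower). The median log2 fold change of the 9 was -0.45, and that of all tested genes was 0.00. In the bulk RNA of a culture, fewer cells of a type and less RNA per cell cannot be told apart. Monocyte and macrophage markers moved in the same libraries: 9 of 11 tested were called higher and 2 lower, but 4 of the 9 (Ly6c2, Cx3cr1, Adgre1 and Cd14) passed the filter on low counts only through the wild-type libraries, which fixed their direction. The 12 markers' summed level was 827 to 1463 CPM in wild-type libraries, 138 to 164 CPM in mutant libraries and 138 to 163 CPM in empty-vector libraries, with Ly6c2 at 0 outside the wild-type group. The summed level of neutrophil markers was 1002 to 3196 CPM in wild-type libraries, 5402 to 5734 CPM in mutant libraries and 4737 to 5331 CPM in empty-vector libraries, nearly all of it from Mpo. The part of such cells in the results on these genes was not tested. All p-values reflect spread among libraries alone, which may be technical.

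**Figure D2:**
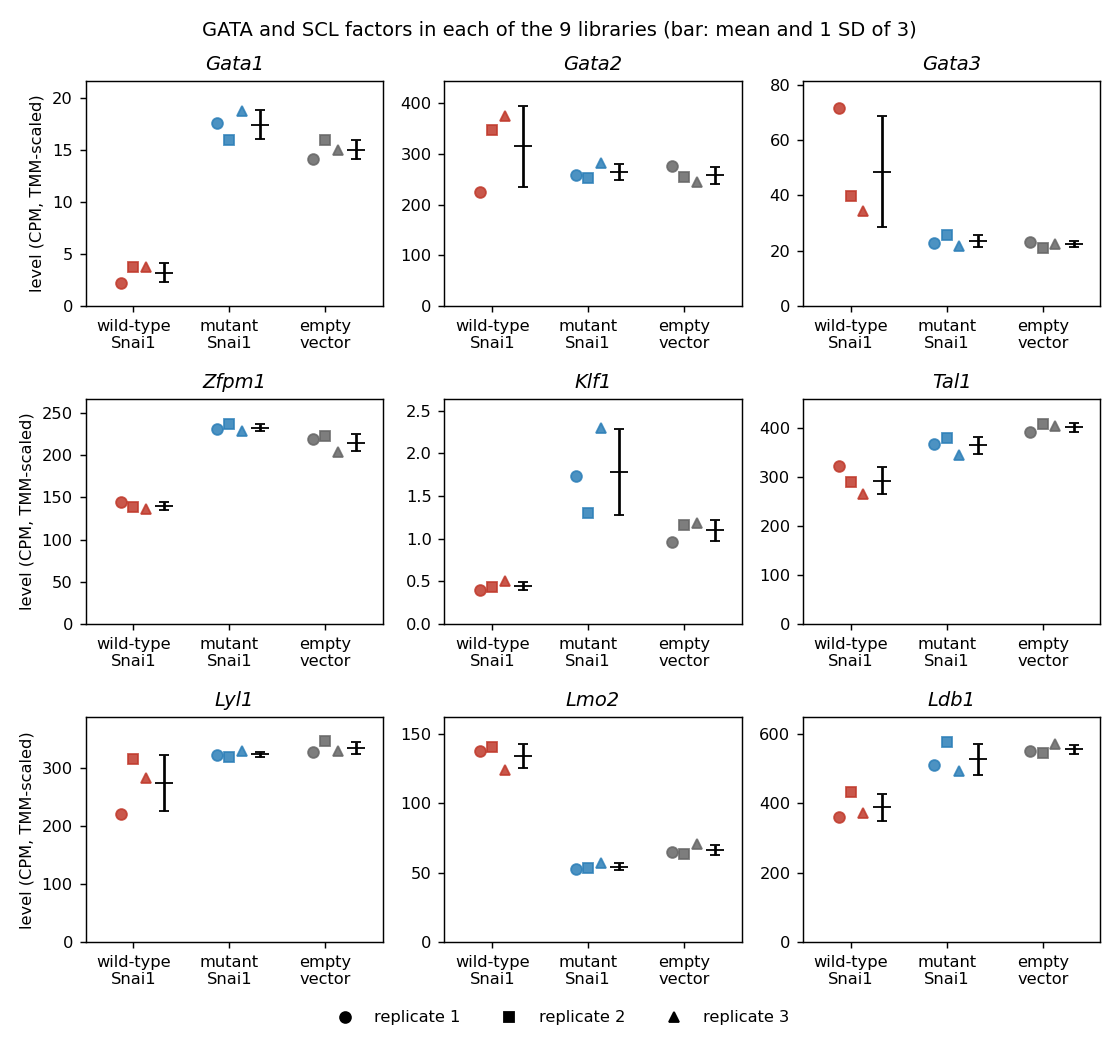
Levels of the 9 genes in each library, in TMM-scaled CPM on linear axes from 0, with a marker for each replicate and the mean and 1 SD of 3 beside them. Gata1, Zfpm1, Klf1, Tal1, Lyl1 and Ldb1 are lower in all wild-type libraries than in any empty-vector library, and Lmo2 and Gata3 are higher, while Gata2 overlaps.

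Among the GATA factors, Gata1 (gene 14460, chromosome X, 7959260 to 7976663 on GRCm38) had 2.19, 3.72 and 3.76 CPM in wild-type libraries, against 14.2, 15.9 and 15.0 CPM in empty-vector libraries. All wild-type libraries were far below the lowest control, and replicate 1 was the lowest. The counts behind these levels were 44, 76 and 75 reads, against 266, 331 and 280. Gata1 fell 4.66-fold, at a log2 difference of -2.22 (SE 0.17, adjusted p 4.07e-06). A fall of at least 4-fold was called for 1.82% of all tested genes.

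Gata2 (gene 14461, chromosome 6, 88193891 to 88207032), the GATA factor of stem and progenitor cells, had 225, 347 and 374 CPM in wild-type libraries, against 277, 254 and 244 CPM in empty-vector libraries. Replicate 1 lay below every control, and replicates 2 and 3 lay above every control. The log2 fold change was 0.29 (SE 0.16, 95% interval -0.07 to 0.64, adjusted p 0.163). Without wild-type replicate 1 it was 0.48, with an adjusted p of 5.31e-06.

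Gata3 (gene 14462, chromosome 2, 9857078 to 9887953) had 71.4, 39.8 and 34.4 CPM in wild-type libraries, against 23.3, 21.1 and 22.3 CPM in empty-vector libraries. Every wild-type library was above every control, with replicate 1 again apart from the others. Gata3 rose 2.18-fold, a log2 difference of 1.12 (SE 0.24, adjusted p 0.00386). Leaving out wild-type replicate 1 gave 0.74 (adjusted p 3.03e-06). Its exons share 77 bases with 9230102O04Rik on the same strand, so some of its reads are uncertain. The relation between the GATA factors changed accordingly: per kilobase, the level of Gata2 was 57.1, 52.0 and 55.5 times that of Gata1 in wild-type libraries, against 10.9, 8.88 and 9.07 in empty-vector libraries. Gata1 made up 1.31% to 1.69% of the length-scaled GATA total in wild-type libraries and 7.80% to 9.41% in empty-vector libraries. Gata3 took 23.9% of it in wild-type replicate 1, 10.2% in replicate 2 and 8.33% in replicate 3, against 7.02% to 7.66% with empty vector.

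Zfpm1 (gene 22761, chromosome 8, 122281856 to 122337862), which encodes the GATA cofactor FOG-1, had 145, 139 and 136 CPM in wild-type libraries, against 219, 223 and 203 CPM in empty-vector libraries. The groups were far apart for their narrow spread. Zfpm1 fell 1.53-fold, a log2 difference of -0.62 (SE 0.05, adjusted p 7.14e-06). Klf1 (gene 16596, chromosome 8, 84901982 to 84905291), the activator of the adult beta-globin gene, was close to the limit of detection, with 8, 9 and 10 reads in wild-type libraries, against 18, 24 and 22 reads in empty-vector libraries. In CPM these were 0.399, 0.441 and 0.502, against 0.957, 1.16 and 1.18. No wild-type library of Klf1 reached the filter's 0.511 CPM, so the gene was tested only through the other groups, which fixed its direction. Klf1 fell 2.44-fold, a log2 difference of -1.29 (SE 0.31, adjusted p 0.00556).

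Of the helix-loop-helix pair, Tal1 (gene 21349, chromosome 4, 115056426 to 115071755) had 322, 290 and 266 CPM in wild-type libraries, against 391, 408 and 403 CPM in empty-vector libraries. The groups did not overlap. Tal1 fell 1.37-fold, a log2 difference of -0.45 (SE 0.07, adjusted p 4.51e-04). Lyl1 (gene 17095, chromosome 8, 84701423 to 84704716) had 221, 316 and 284 CPM in wild-type libraries, against 327, 346 and 329 CPM in empty-vector libraries. Replicate 1 was the low library, and replicate 2 was the closest to the controls, which it did not reach. Its log2 fold change of -0.29 (SE 0.11) was just past the threshold, with an adjusted p of 0.0445. The value was -0.15 without wild-type replicate 1 (adjusted p 0.0237) and -0.31 without wild-type replicate 3 (0.0597), and the call was also lost without any single empty-vector or mutant library. Per kilobase, Tal1 was at 0.630, 0.396 and 0.405 of Lyl1 in wild-type libraries, against 0.517, 0.510 and 0.530 in empty-vector libraries, above the controls in replicate 1 and below them in the other 2.

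The adaptors moved in opposite directions. Lmo2 (gene 16909, chromosome 2, 103957903 to 103981878) had 137, 140 and 124 CPM in wild-type libraries, against 65.3, 63.4 and 70.3 CPM in empty-vector libraries. The lowest wild-type library was well above the highest control. Lmo2 rose 2.02-fold, a log2 difference of 1.01 (SE 0.07, adjusted p 1.52e-06), with little difference between wild-type libraries.

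Ldb1 (gene 16825, chromosome 19, 46031525 to 46048145) had 361, 433 and 371 CPM in wild-type libraries, against 550, 545 and 570 CPM in empty-vector libraries. All wild-type libraries were below all controls. Ldb1 fell 1.43-fold, a log2 difference of -0.51 (SE 0.08, adjusted p 4.48e-04). Its exons share 177 bases with Pprc1 on the opposite strand, and the strand setting of the counting is not given, so part of its reads is uncertain. Per kilobase, the level of Ldb1 was 1.87, 2.19 and 2.13 times that of Lmo2 in wild-type libraries, against 5.98, 6.09 and 5.75 in empty-vector libraries. Set against Tal1, the length-scaled level of Lmo2 was 0.935, 1.06 and 1.02 times as high in wild-type libraries, against 0.366, 0.341 and 0.382 in empty-vector libraries. Over all 9 genes the length-scaled sum was 543, 644 and 594 CPM per kilobase in wild-type libraries, against 681, 687 and 681 in empty-vector libraries.

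The heat map of single libraries shows which of these changes the 3 wild-type libraries share. Lmo2 (1.05, 1.08 and 0.90 above the control mean in replicates 1 to 3, in log2 CPM with a prior count of 2) and Zfpm1 (-0.57, -0.63 and -0.66) were nearly equal in all 3. Gata2 (-0.20, 0.43 and 0.54), Gata3 (1.68, 0.84 and 0.63), Gata1 (-2.72, -1.98 and -1.97) and Lyl1 (-0.60, -0.08 and -0.24) set replicate 1 apart.

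**Figure D3:**
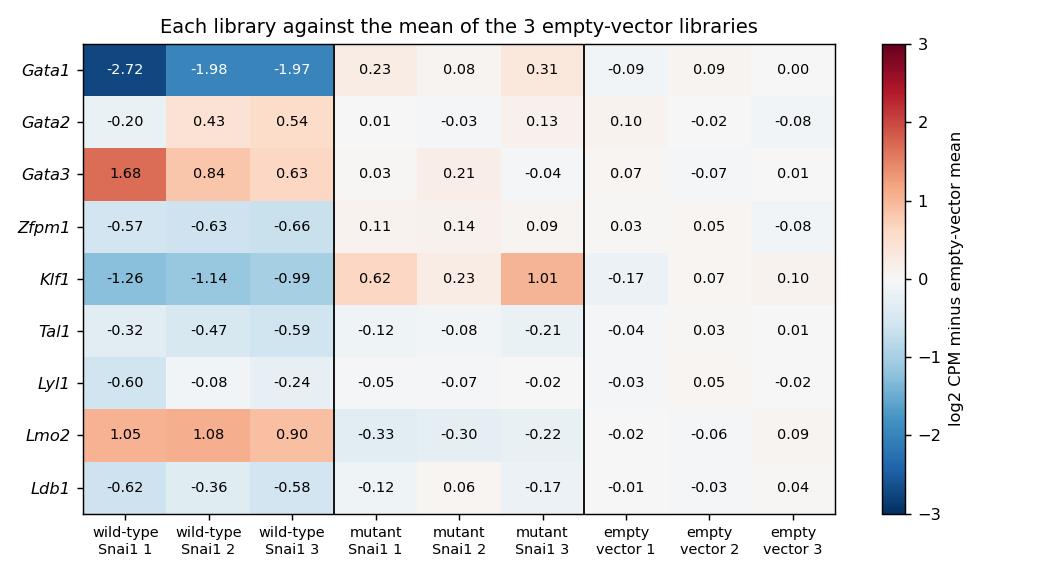
Difference of each library from the mean of the 3 empty-vector libraries, in log2 CPM with a prior count of 2, for the 9 genes (rows) and 9 libraries (columns, by group). Wild-type libraries run from -2.72 for Gata1 to 1.68 for Gata3, both in replicate 1, while mutant libraries stay between -0.33 for Lmo2 and 1.01 for Klf1.

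Cells with mutant Snai1 were set against the same empty-vector libraries to see what remains without the contact with Lsd1. None of the 9 genes was called: 0 were higher and 0 lower in edgeR, where 0.00801% of all genes were called, a single gene, which was Snai1 itself. DESeq2 and limma-voom also called 0 of the 9. At an unadjusted p under 0.05 there were 2 of the 9, Lmo2 and Klf1, while 4.83% of all genes passed that mark. The groups did not overlap for 4 of the 9, against 17.6% of all genes: 2 members were higher (8.53% of all genes) and 2 lower (9.04%). DESeq2 gave no adjusted p for Gata1, Gata3 and Klf1. The median log2 fold change of the 9 was 0.03.

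Gata1 had 17.6, 15.9 and 18.7 CPM in mutant libraries, a log2 fold change of 0.21 over empty vector (95% interval -0.13 to 0.55, adjusted p 0.998). Gata2 was at 260, 252 and 282 CPM (0.03, -0.32 to 0.39), and Gata3 at 22.7, 25.8 and 21.6 CPM (0.07, -0.48 to 0.62). These intervals leave room for changes of moderate size in either direction, and all 3 genes overlapped with the controls. Zfpm1 was at 231, 237 and 229 CPM, above all controls, with 0.11 (0.00 to 0.23). Klf1 had 34, 26 and 45 reads in mutant libraries, more than in any control, with a log2 fold change of 0.69 (0.13 to 1.25, unadjusted p 0.0207, adjusted p 0.980). Tal1 was at 368, 379 and 345 CPM, below all controls, with -0.14 (-0.30 to 0.02).

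Lyl1 was at 323, 319 and 329 CPM (-0.05, -0.28 to 0.19) and Ldb1 at 509, 577 and 494 CPM (-0.08, -0.25 to 0.10), both overlapping with the controls. Lmo2 was the member with the smallest p, and it differed in the direction opposite to wild-type Snai1. It had 52.6, 53.7 and 56.9 CPM in mutant libraries, against 65.3, 63.4 and 70.3 CPM in empty-vector libraries. The mutant libraries all lay below the controls, with a log2 fold change of -0.29 (SE 0.07, 95% interval -0.44 to -0.13, unadjusted p 0.00190). Its adjusted p of 0.980 did not pass, and without wild-type replicate 1, which shares the estimate of spread, the adjusted p was 0.0570. The ratio of Gata2 to Gata1 per kilobase was 8.21, 8.84 and 8.39 in mutant libraries, and that of Ldb1 to Lmo2 was 6.87, 7.62 and 6.15.

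The third comparison, wild-type against mutant Snai1, tests the difference between both inserts at similar levels of Snai1 RNA. The log2 fold change of Snai1 was 0.10 (95% interval -0.14 to 0.33), and these data hold no protein levels. Of the 9 genes, 2 were higher with wild-type Snai1, against 24.5% of all genes, and 5 were lower, against 23.4%, or 47.9% of all genes in either direction. The libraries did not overlap for 8 of the 9, against 55.8% of all genes, and 54.2% of all genes had an unadjusted p under 0.05. Gata1, Klf1, Zfpm1, Ldb1 and Tal1 were the lower ones, and Lmo2 and Gata3 the higher ones. This comparison and the first share the wild-type libraries, so their fold changes are not independent.

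Gata1 was 5.39-fold lower with wild-type than with mutant Snai1 (log2 difference -2.43, SE 0.17, adjusted p 2.20e-06). A called fall of at least 4-fold was found for 1.72% of all tested genes. Klf1 differed by -1.98 (SE 0.29, 2.94e-04) and Zfpm1 by -0.73 (SE 0.05, 2.30e-06). Klf1, counted among the lower genes, passed the filter only through the mutant and empty-vector libraries, so its direction was fixed. Lmo2 was 2.46-fold higher, with 1.30 (SE 0.07, 3.20e-07). Gata3 differed by 1.05 (SE 0.24, 0.00552), or by 0.66 without wild-type replicate 1 (9.37e-06). Ldb1 differed by -0.44 (SE 0.08, 0.00125) and Tal1 by -0.32 (SE 0.07, 0.00426). Lyl1 did not pass, with -0.24 (95% interval -0.48 to -0.01, adjusted p 0.0861), although all wild-type libraries were below all mutant ones, and passed without wild-type replicate 2 (-0.36, 0.0127). Gata2 did not pass either, with 0.25 (-0.10 to 0.61, 0.218), and passed without wild-type replicate 1 (0.45, 1.24e-05).

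**Figure D4:**
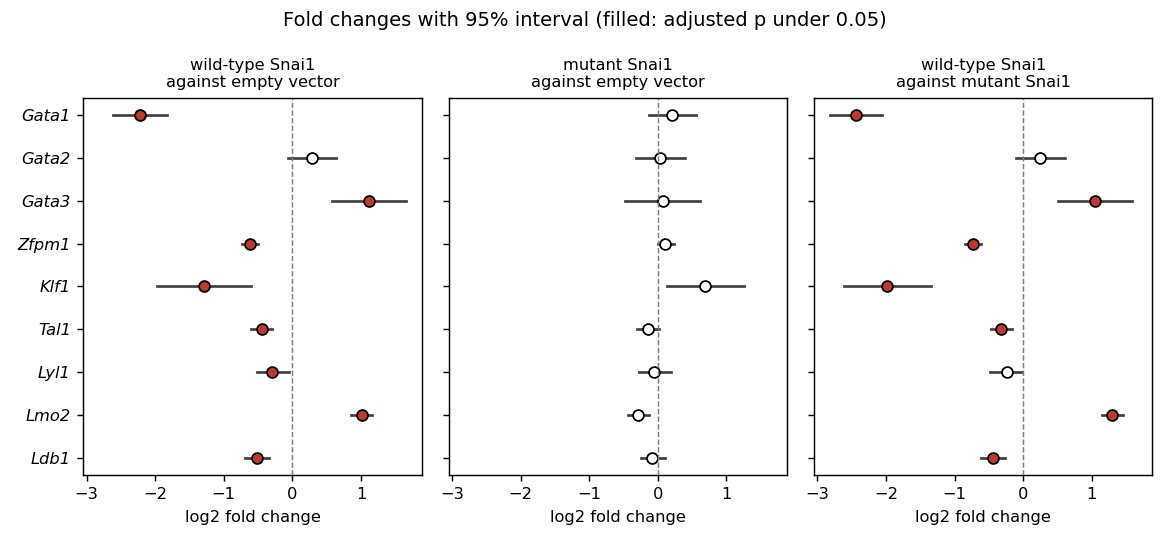
Log2 fold changes of the 9 genes (points) with their 95% intervals (lines) in the 3 comparisons, filled where the adjusted p of edgeR's quasi-likelihood test was under 0.05. Against empty vector 8 genes are filled with wild-type Snai1 and 0 with the mutant, and 7 are filled between wild type and mutant.

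Among 19 partners and regulators of the complex, all tested, 6 fell and 3 rose with wild-type Snai1 against empty vector, and 0 of them were called with the mutant in edgeR, DESeq2 or limma-voom, where 1 had an unadjusted p under 0.05. In either direction 9 of 19 were called, close to the 49.4% of all genes, where 24.3% fell and 25.2% rose, and the list's median log2 fold change was -0.09. Ssbp2, whose single-stranded DNA-binding protein binds Ldb1 and protects it from degradation, had 3.34, 4.70 and 5.52 CPM in wild-type libraries, against 49.7, 47.4 and 52.5 CPM in empty-vector libraries. It fell, with a log2 difference of -3.46 (SE 0.14, adjusted p 4.13e-08), by more than any of the 9 genes, and was at 42.0, 42.6 and 42.7 CPM in mutant libraries. Runx1, which shares many sites with these factors, fell to 84.6 ± 4.39 CPM, against 164 ± 11.1 CPM (-0.95, SE 0.07, adjusted p 3.98e-06). Cbfa2t3, which encodes the corepressor ETO2 of the SCL complex, fell to 235 ± 31.6 CPM, against 429 ± 8.11 CPM (-0.87, SE 0.08, 1.50e-05). Tcf3, the gene of the E proteins E12 and E47, fell to 171 ± 1.44 CPM, against 251 ± 16.5 CPM (-0.55, SE 0.06, 3.12e-05). The count of partners that rose was 5 without wild-type replicate 1 and 1 without empty vector replicate 2 or 3 or wild-type replicate 2 or 3. Lower ones numbered 9 without wild-type replicate 1. Of 10 paralogs of the members, 6 had no read in any library, among them Gata4, Gata5 and Gata6, and Zfpm2 alone passed the filter, through the wild-type libraries only. It was at 1.01 ± 0.425 CPM with wild-type Snai1, 0.372 ± 0.0783 CPM with the mutant and 0.415 ± 0.0718 CPM with empty vector, values that are given with no test.

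Red cell genes, many of them bound by Gata1 or Klf1 in erythroid cells, were mostly at low levels here. Of the 35 matched, 15 had enough reads to be tested, and the globin genes Hba-a1, Hba-a2 and Hbb-bs had 0 reads in all 9 libraries, although near-identical globin copies can lose reads in counting. With wild-type Snai1 10 of the 15 fell, against 24.3% of all tested genes, and 3 rose, against 25.2%. Their median log2 fold change was -0.39. Car1, counted among those that fell, passed the filter on low counts only through the mutant libraries. Only 6 fell when any 1 of the empty-vector libraries was left out. With the mutant 0 were called in edgeR, DESeq2 or limma-voom. There 3 of the 15 had an unadjusted p under 0.05 in edgeR, against 4.83% of all genes. They include Car1 (1.63 over empty vector, SE 0.41), whose direction in this comparison was fixed by the filter. Bcl11a, the repressor of fetal globin, had 28.2, 28.3 and 29.3 CPM in wild-type libraries, against 78.4, 75.0 and 78.2 CPM in empty-vector libraries (-1.43, SE 0.06, adjusted p 3.70e-08). E2f2, a cell cycle factor of red cell precursors, fell to 7.34 ± 0.803 CPM, against 27.5 ± 1.52 CPM (-1.91, SE 0.10, 2.88e-07). Hemgn fell to 16.9 ± 5.93 CPM, against 55.0 ± 0.918 CPM (-1.70, SE 0.21, 1.41e-04).

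Megakaryocyte genes, another group of Gata1 targets, went mainly the other way. Of 15 tested, 10 rose with wild-type Snai1, against 25.2% of all tested genes, and 2 fell, against 24.3%. Their median log2 fold change was 1.02. With the mutant 0 were called in edgeR, against 1 in DESeq2 and 0 in limma-voom, or 4 without wild-type replicate 1. An unadjusted p under 0.05 in edgeR was found for 3 of the 15, against 4.83% of all genes. F2r, a thrombin receptor gene, rose to 862 ± 44.5 CPM, against 336 ± 13.6 CPM (1.36, SE 0.06, adjusted p 1.08e-07), and F2rl2 rose to 31.7 ± 2.28 CPM, against 4.23 ± 0.119 CPM (2.91, SE 0.15, 2.25e-07). Clec1b, a platelet receptor gene counted among the 10 that rose, had 431 reads in wild-type libraries, against 1 read in empty-vector libraries. It passed the filter only through the wild-type libraries, which fixed its direction, so only its reads are given. Gp9, a subunit of the von Willebrand factor receptor, fell to 2.80 ± 0.356 CPM, against 10.9 ± 0.780 CPM (-1.96, SE 0.14, 2.54e-06).

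Of 8 tested mast cell genes, many of them Gata2 targets, 4 rose and 1 fell with wild-type Snai1. Of all tested genes 25.2% rose and 24.3% fell, or 49.4% in either direction. The list's median log2 fold change was 0.39. Mitf, a regulator of mast cells, rose to 53.3 ± 7.47 CPM, against 9.37 ± 0.133 CPM (2.51, SE 0.12, adjusted p 1.08e-07), and Il1rl1, the interleukin 33 receptor gene, rose to 198 ± 11.8 CPM, against 66.7 ± 5.40 CPM (1.57, SE 0.07, 1.37e-07). Hdc, the histidine decarboxylase gene, fell to 1.92 ± 1.01 CPM, against 7.27 ± 0.997 CPM (-1.92, SE 0.35, 0.00130). Fcer1g, a shared chain of Fc receptors, rose to 104 ± 8.44 CPM, against 73.6 ± 1.58 CPM (0.49, SE 0.08, 4.92e-04), and was at 100 ± 8.84 CPM in mutant libraries (0.45 over empty vector, adjusted p 0.317). With the mutant 0 mast cell genes were called in edgeR and limma-voom and 1 in DESeq2. An unadjusted p under 0.05 in edgeR was found for 3 of the 8, against 4.83% of all genes. They include Cma1 (1.53 over empty vector, SE 0.50), which passed the filter through no empty-vector library, so that its direction was fixed. Between wild-type and mutant Snai1, 3 mast cell genes were called higher and 1 lower, with a median log2 fold change of -0.01. Of all tested genes 24.5% were higher and 23.4% lower in that comparison, or 47.9% in either direction.

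**Figure D5:**
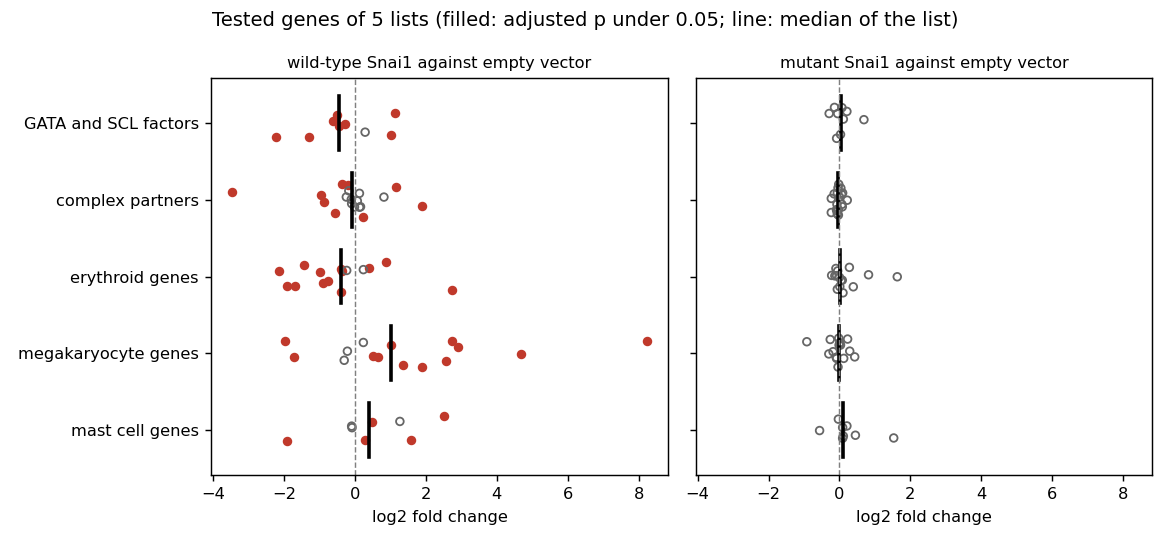
Log2 fold changes of the tested genes of 5 lists (points, filled where the adjusted p was under 0.05) with the median of each list (lines), for wild-type Snai1 and for mutant Snai1 against empty vector. With wild-type Snai1 the medians are -0.45 for the 9 factors, -0.09 for the partners, -0.39 for erythroid, 1.02 for megakaryocyte and 0.39 for mast cell genes, and no point is filled with the mutant.

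The genes whose profile over the 9 libraries was most like that of each factor were ranked by the root mean square difference of log2 CPM, after each gene was centred on its own mean, among 11382 genes with a symbol and a mean of at least 1 CPM. Such a likeness rests mainly on the difference between the groups and is a description. Nearest to Gata1 were Spns3 (difference 0.123) and Pard6b (0.139). Spns3 averaged 10.9 ± 3.35 CPM with wild-type Snai1, 48.6 ± 1.88 CPM with the mutant and 46.3 ± 3.03 CPM with empty vector. Nearest to Lmo2 were Lrrc39 (0.056) and Phf20l1 (0.072), where Phf20l1 averaged 450 ± 8.99 CPM with wild-type Snai1, 196 ± 9.66 CPM with the mutant and 226 ± 11.2 CPM with empty vector. Gata3 was followed most closely by H2-T24 (0.092) and by Ddx58, the gene of the RNA sensor RIG-I (0.107), and Gata2 by the histone demethylase gene Kdm6b (0.053) and by Bag2 (0.054). For Zfpm1 the nearest were Emid1 (0.044) and Nicn1 (0.052), for Tal1 Ercc4 (0.029) and Rxrb (0.043), for Lyl1 Npepl1 (0.051) and Phf21b (0.055), and for Ldb1 Gigyf1 (0.037) and Rgs8 (0.047). Klf1, at the lowest counts, had the most distant neighbours, Them6 (0.255) and Galnt6 (0.265). Within the set, Tal1 and Ldb1 were the closest pair (0.120), and Gata1 and Lmo2 the most distant (1.67).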

How the data were processed

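RNA of 9 HPC7 libraries, 3 per group, was made into TruSeq stranded mRNA libraries, per the labels' protocols. The deposited values are raw counts per Entrez gene, made by the authors with featureCounts on mm10, per the submitters' processing notes, where edgeR 3.15.0 is listed with limma 3.29.12. For aligner, annotation, strand setting and featureCounts version, the entry is: not given in the sources used here. Gene length as deposited is an other quantity, in bases, used for CPM per kilobase. RefSeq GRCm38.p6 named 25275 of 27179 identifiers and GENCODE M21 named 18 more.

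In R 4.3.3 with edgeR 4.0.16, genes passing filterByExpr (minimum count 10) were scaled with TMM and fitted in 1 robust quasi-likelihood model of all 9 libraries. Standard errors are the log2 fold change divided by the root of F, and calls are at an adjusted p under 0.05. Spread between 3 libraries sets the precision. The fit was tested on simulated data. Replicate numbers have no stated meaning and were not used to pair libraries in the main fit.

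The members, lists and tests were chosen with earlier results of these data known. Text names all 9 members, the up to 4 genes of each described list with the smallest adjusted p for wild-type Snai1 against empty vector, and the 2 genes most like each member. A pair of list genes that this rule selects is not reported here. Of 164 list names 162 were matched. Alternatives were RLE scaling, library size only, no filter, DESeq2 1.42.0, limma-voom 3.58.1, 6 libraries, a replicate block and leaving out each library. Leaving out 1 identifier, and applying all of these to the lists, were added after seeing the data.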

Additional observations from a re-analysis of the deposited data

How the results depend on the processing

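Under the 17 alternatives, the 27 fold changes of the 9 genes kept direction and call in 444 of 459 cases. These include the mutant results of Gata1, Gata3 and Klf1 in DESeq2, which had no adjusted p and were taken as not called. The count of members higher with wild-type Snai1 stayed at 2 to 3 and that of members lower at 5 to 6, against either empty vector or mutant. With mutant Snai1 both counts were 0 throughout. Exceptions were Lyl1, whose call against empty vector was lost in 8 alternatives (adjusted p 0.0597 to 0.125) and whose difference from the mutant passed with library sizes alone (-0.30, adjusted p 0.0380), and Gata2, called without wild-type replicate 1; the cause was not tested. Small differences with the mutant changed sign when single libraries were left out, from -0.01 to 0.09 for Gata2 and from -0.01 to 0.12 for Gata3. Over all genes the mutant comparison had 1 call, against 2 in limma-voom and without wild-type replicate 2, 8 in DESeq2, 30 with only the 6 libraries compared and 62 without wild-type replicate 1. In the lists, counts against empty vector ran from 1 to 5 for partners higher with wild-type Snai1, 6 to 11 for erythroid genes lower and 10 to 11 for megakaryocyte genes higher. Same-numbered libraries correlated between -0.087 and 0.210 after removal of group means, 2 of 9 pairs above 0.1, and 4 of 9 libraries correlated best with their own number. With the replicate block, 2 members were higher and 6 lower against empty vector, 2 and 5 against the mutant, and 0 and 0 for the mutant against empty vector, so that no member's call changed, while the 3 partners that rose against empty vector became 1. Klf1, at 8 to 45 reads per library, is limited by depth.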

Other observations

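Markers of the progenitor line itself were split. With wild-type Snai1 Ly6a, the gene of Sca-1, rose to 513 ± 17.7 CPM, against 41.8 ± 3.48 CPM with empty vector (log2 difference 3.62, SE 0.10, edgeR adjusted p 3.66e-09), and Cd34 rose to 3274 ± 713 CPM, against 2137 ± 38.1 CPM (0.62, SE 0.12, 0.00221). Flt3, a receptor of lymphoid and myeloid progenitors, fell to 1.91 ± 0.379 CPM, against 28.9 ± 5.00 CPM (-3.92, SE 0.17, 7.43e-08), and Cd48 fell to 238 ± 61.3 CPM, against 385 ± 20.6 CPM (-0.69, SE 0.16, 0.00531). The mutant was at 42.7 CPM for Ly6a and 27.6 CPM for Flt3.

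Among markers of other cells, Lyz2, the lysozyme gene of myeloid cells, was at 406 ± 96.5 CPM with wild-type Snai1 and 11.6 ± 0.926 CPM with empty vector (5.13, SE 0.23, 3.71e-07). Mpeg1 (6.95, 3.71e-07) and Cd68 (2.35, 3.76e-07) were higher too. Cd14, Lcn2 and Mmp8 passed the filter on low counts only through the wild-type libraries, so they are given with no test. Cd14 was at 36.1 ± 9.65 CPM with wild-type Snai1 and 0.524 ± 0.228 CPM with empty vector. Lcn2 was at 83.1 ± 28.8 CPM, against 0.224 ± 0.0836 CPM, and Mmp8 at 10.6 ± 9.56 CPM, against no read. Of the other neutrophil markers, Mpo fell to 2218 ± 1122 CPM, against 5112 ± 329 CPM (-1.20, SE 0.36, 0.0247). Cxcr2 did not pass (-0.58, 0.312). Among lymphoid markers Nkg7 fell (-0.20, 0.00784), and Cd79b, which passed the filter only through the other groups, was at 0.315 ± 0.163 CPM with wild-type Snai1 and 1.93 ± 0.411 CPM with empty vector, while Cd3e, Ms4a1, Pax5 and Bcl11b had no read. Of 2 tested stromal and endothelial markers, Pdgfrb fell (-0.39, 0.00596) and Pecam1 did not pass (-0.03, 0.681).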
